A study of Mus musculus with 12 samples.

Results

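The 36 genes described here encode the enzymes of glycolysis, the carriers that bring glucose into the cell and take lactate out, and the oxygen-sensing and low-oxygen response genes that are often measured with them. They were listed by name, with earlier results of these data known, and are 36 of the 55471 gene identifiers in the count tables. RNA sequencing was done on 12 libraries from 4 mouse melanoma cell lines, MeVa2.1.dOVA, MeVa2.1, MeVa2.2.dOVA and MeVa2.2, with 3 libraries per line. All 12 libraries carry the labels wild type and untreated, and give skin and subcutaneous tumour as the tissue. The series title calls MeVa2.1.dOVA refractory to immune attack. What dOVA stands for is not spelled out by the labels, and each dOVA line is set here against the line whose name it extends. Each group is a single line, so a difference tied to dOVA and any other difference between 2 lines cannot be told apart. Oxygen level, medium and cell density are not given in the sources used here.

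Glycolysis splits glucose into pyruvate. Its preparatory steps spend ATP and its later steps return it, and lactate dehydrogenase turns pyruvate into lactate when it is not burnt in mitochondria. The transcription factor HIF-1, whose oxygen-regulated subunit is encoded by Hif1a, is marked for destruction by the prolyl hydroxylases Egln1 and Egln3 when oxygen is present. In low oxygen it accumulates and raises the transcription of many glycolytic genes and of Egln3 itself. Tumour cells often run glycolysis at a high rate in the presence of oxygen as well.

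The libraries held 16181816 to 35627069 gene counts, and the replicate 3 library was the deepest of each line, with 26291546 to 35627069 counts. Levels are given as CPM, which are counts scaled to the library's total of gene counts. Leukocyte markers summed to 1.38 to 4.31 CPM, endothelial markers to 0.356 to 1.24 CPM and erythroid markers to at most 0.038 CPM. Melanocyte markers summed to 9.71 to 17.1 CPM in MeVa2.1.dOVA, 14.7 to 26.7 CPM in MeVa2.1, 9.07 to 16.7 CPM in MeVa2.2.dOVA and 10.5 to 60.5 CPM in MeVa2.2. Of these markers, Tyrp1, Dct and Mlana were at 0 in 7 of the 12 libraries each, and Sox10 and Slc45a2 in 6. Dct reached 15.9 CPM and Tyrp1 12.3 CPM in other libraries. Tyr was at 0 in 1 library and reached 2.43 CPM, and Pmel was at 0.213 to 6.39 CPM. Mitf was at 8.84 to 24.1 CPM. The markers listed for dedifferentiated melanoma differed, with Axl at 1240 to 1840 CPM and Nes at 77.2 to 452 CPM. Ngfr, also on that list, was at 0 to 6.05 CPM, with 2 libraries at 0. The 5 genes listed as fibroblast markers summed to 229 to 1030 CPM in MeVa2.2.dOVA and 519 to 1690 CPM in MeVa2.2, most of it Col1a1. Their sum was 752 to 1390 CPM in MeVa2.1.dOVA and 805 to 1240 CPM in MeVa2.1. The part of these markers in the differences below was not tested. In such bulk samples, fewer cells of a type and less RNA per cell cannot be told apart.

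Per kilobase of exon, the most abundant of the 36 was Pkm, which encodes the pyruvate kinase of most tissues, with a median of 566.5 CPM per kb over the 12 libraries. Aldoa, the aldolase that splits fructose bisphosphate, followed at 327 CPM per kb, and Ldha, the lactate dehydrogenase subunit of glycolytic tissues, at 281 CPM per kb. Tpi1, the triose phosphate isomerase, had a median of 167 CPM per kb and Gapdh, the glyceraldehyde phosphate dehydrogenase, one of 160.4 CPM per kb. At the other end stood Car9, a carbonic anhydrase known as a marker of hypoxia, with 0 to 17 counts per library and 0 to 0.505 CPM. Car9 did not pass the filter on low counts, so 35 of the 36 genes were tested. Aldoc, the aldolase best known from brain, was the lowest per kb of those tested, at 0.104 to 0.648 CPM. Hif1a had 285 to 467 CPM over all libraries. Some members have near-identical copies that could share their reads, and levels of the copies were low, such as 3.57 to 19.0 CPM for Aldoart1 and 1.65 to 13.4 CPM for the pseudogene Tpi-rs11. Reads of low mapping quality are left out of these counts, so low levels of the copies do not show how many reads the members lost. A second identifier carrying the name Aldoa had 1.09 to 5.35 CPM and is not used here.

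The test for any difference among the 4 lines passed an adjusted p of 0.05 for 8 of the 35 genes, against 14.2% of the 13985 genes tested (edgeR's quasi-likelihood F test, p-values adjusted over all of these genes after Benjamini and Hochberg). The 8 were the glucose transporters Slc2a1 and Slc2a3, the hexokinase Hk1, the phosphofructokinase Pfkp, the enolase Eno2, the lactate exporter Slc16a3, the hydroxylase Egln3 and the vasodilator peptide gene Adm. Their adjusted p-values ran from 2.6e-05 for Slc2a3 to 0.0245 for Eno2. Of the enzymes of the later steps, only Eno2 passed this test, and Gapdh, Pgk1, Pgam1, Eno1 and Pkm did not. Ldha did not pass either. Of the preparatory enzymes after hexokinase, only Pfkp passed. With the replicate number added to the fit as a block, 22 of the 35 passed, against 31.0% of all genes tested, and Pkm was 1 of them (adjusted p = 0.0335). Same-numbered libraries deviated together in all pairs of lines compared below, but hardly so for replicate 1 in 2 of the pairs. Its deviations correlated at 0.0815 for MeVa2.2.dOVA with MeVa2.2 and at 0.105 for the 2 dOVA lines. Nothing in the labels tells separate cultures of a line from repeat libraries of 1 culture. The p-values therefore measure only spread among these libraries, which may be technical.

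**Figure D1:**
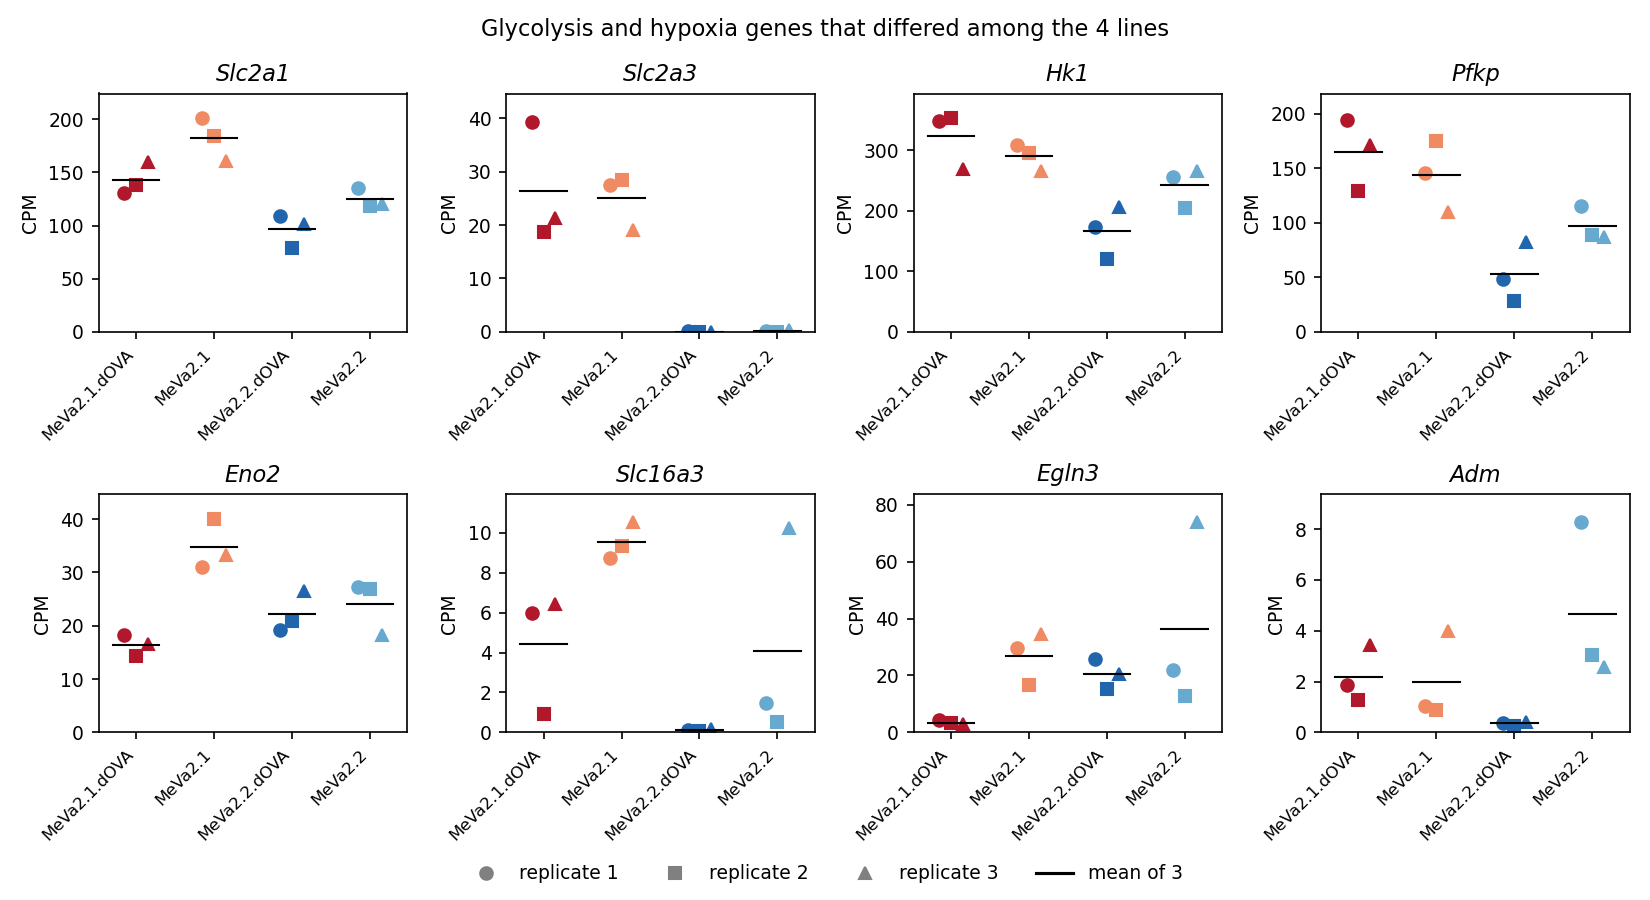
Levels in CPM on linear axes from 0 (y) of the 8 genes that passed the test among the 4 lines (x), with 1 point per library, the replicate number as its shape and a bar at the mean of 3. Slc2a3 lay between 18.7 and 39.4 CPM in the libraries of MeVa2.1.dOVA and MeVa2.1 and at no more than 0.38 CPM in those of MeVa2.2.dOVA and MeVa2.2, and Egln3 was lowest in the 3 libraries of MeVa2.1.dOVA.

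MeVa2.1.dOVA was set against MeVa2.1 to ask how the dOVA line differs from the line it is named after. Of the 35 genes, 1 passed the threshold, against 0.486% of all genes tested, and it was Egln3. Egln3 had 4.26, 3.27 and 2.82 CPM in replicates 1, 2 and 3 of MeVa2.1.dOVA, against 29.5, 16.6 and 34.7 CPM in those of MeVa2.1. All 3 libraries of MeVa2.1.dOVA lay below all 3 of MeVa2.1. The log2 fold change was -2.97 with a standard error (SE) of 0.57 and an adjusted p of 0.0493, close to the threshold. The hydroxylase Egln1 had 55.2 to 79.7 CPM in MeVa2.1.dOVA and 59.0 to 108.7 CPM in MeVa2.1, and its difference did not pass. The call of Egln3 was kept in 7 of 19 alternative analyses, with adjusted p-values from 1.12e-05 to 0.24. It was lost when any 1 library other than replicates 2 and 3 of MeVa2.2 was left out, at log2 fold changes of -3.20 to -2.77.

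Same-numbered libraries of these 2 lines deviated together from their line means, so the fit with the replicate number as a block is given beside the first. With the block, 2 of the 35 genes passed, against 2.6% of all genes tested, both lower in MeVa2.1.dOVA. The second was Eno2, the enolase best known from neurons. Eno2 had 18.2, 14.3 and 16.5 CPM in MeVa2.1.dOVA, against 30.9, 40.1 and 33.2 CPM in MeVa2.1, with no overlap. Its log2 fold change was -1.09 (SE 0.21, adjusted p = 0.027) with the block, and its adjusted p was 0.0592 without it. Egln3 had a log2 fold change of -2.89 (SE 0.48, adjusted p = 0.0149) with the block.

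Libraries of the 2 lines did not overlap for 8 of the 35 genes, all lower in MeVa2.1.dOVA, where 10.4% of all genes tested were lower without overlap. Besides Egln3 and Eno2 these were Slc2a1, Pfkm, Slc16a1, Slc16a3, Ankrd37 and P4ha1, none of which passed the test. Ankrd37, a hypoxia-induced ankyrin repeat gene, had 1.92, 0.747 and 1.29 CPM in MeVa2.1.dOVA and 3.29, 4.95 and 4.07 CPM in MeVa2.1. P4ha1, a collagen prolyl hydroxylase subunit, had 178, 124 and 225 CPM in MeVa2.1.dOVA and 227, 269.6 and 269.7 CPM in MeVa2.1. The median log2 fold change of the 35 genes was -0.20, with 22 below 0, against 0.00 for all genes tested, of which 6943 of 13985 were below 0.

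MeVa2.2.dOVA was set against MeVa2.2 for the same question in the other pair. Of the 35 genes, 2 passed, both lower in MeVa2.2.dOVA, against 1.99% of all genes tested. Slc16a3, the MCT4 carrier that exports lactate, had 0.108, 0.0533 and 0.178 CPM in the MeVa2.2.dOVA libraries, in replicate order, against 1.48, 0.527 and 10.2 CPM in those of MeVa2.2. The groups did not overlap, and replicate 3 of MeVa2.2 held most of that line's counts. The 2 lines had 9 and 304 counts of Slc16a3 in all, and the log2 fold change was -5.06 (SE 1.15, adjusted p = 0.0487). Without replicate 3 of MeVa2.2 it was -3.0 and the adjusted p was 0.164. The call was kept in 7 of the 18 alternatives in which Slc16a3 was tested, with adjusted p-values from 3.02e-05 to 0.194, and of the single libraries only replicate 2 of MeVa2.1.dOVA or of MeVa2.2 could be left out without losing it.

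Adm, which encodes the vasodilator adrenomedullin, had 0.378, 0.267 and 0.416 CPM in MeVa2.2.dOVA, against 8.29, 3.05 and 2.59 CPM in MeVa2.2. All libraries of MeVa2.2.dOVA lay below all of MeVa2.2. The log2 fold change was -3.70 (SE 0.72, adjusted p = 0.0296), from 26 counts in MeVa2.2.dOVA and 266 in MeVa2.2. It was kept in 14 of 19 alternatives, with adjusted p-values from 1.44e-05 to 0.132. Leaving out any 1 library of MeVa2.2.dOVA, or replicate 1 of MeVa2.2 (log2 fold change of Adm -3.01), ended the call, as did fitting the 2 lines alone.

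Libraries did not overlap for 4 of the 35 genes, all lower in MeVa2.2.dOVA, against 7.49% of all genes tested that were lower without overlap. They were Slc16a3, Adm, Slc2a1 and Pfkp. Pfkp, the platelet-type phosphofructokinase, had 48.4, 28.4 and 82.2 CPM in MeVa2.2.dOVA and 115.8, 88.8 and 87.2 CPM in MeVa2.2, and it did not pass. The median log2 fold change was -0.40 with 30 of 35 below 0, against -0.02 for all genes tested, of which 7237 of 13985 were below 0. With the replicate block 26 of the 35 were below 0. The preparatory enzymes, 7 in all, were each below 0, with a median of -0.76 and none past the threshold. Those 7 are Gpi1, Pfkp, Pfkl, Pfkm, Aldoa, Aldoc and Tpi1. Several of them moved together between libraries of a line, such as Aldoa with Tpi1 (correlation 0.99 after line means were removed). Their signs are therefore not separate observations. With 1 library left out at a time, the log2 fold change of Pfkl ran from -1.665 to -0.10.

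None of the 35 genes passed when the 2 dOVA differences were set against each other in 1 test, where 0.0858% of all genes tested passed (edgeR's quasi-likelihood test). Without adjustment, 7 of the 35 were under 0.05, against 1187 of the 13985 genes tested. Adm had the smallest p, with a difference of the 2 log2 fold changes of 3.86 (SE 0.94, adjusted p = 0.162). DESeq2 called 1 gene, Adm, with an adjusted p of 0.00678, and so did edgeR without the filter on low counts, with 0.0264. Egln3 had a difference of -2.12 (SE 0.75), so a change in MeVa2.1.dOVA that differs from the one in MeVa2.2.dOVA was not shown for it.

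MeVa2.1 was set against MeVa2.2 to compare the lines without dOVA in their names. Of the 35 genes, 1 passed, against 4.48% of all genes tested, and it was Slc2a3, the high-affinity glucose transporter best known from neurons. Slc2a3 had 27.6, 28.4 and 19.0 CPM in replicates 1, 2 and 3 of MeVa2.1, against 0.118, 0.0527 and 0.380 CPM in those of MeVa2.2. All libraries of MeVa2.1 lay far above all of MeVa2.2. The 2 lines had 1734 and 13 counts, a ratio of 113 scaled to library totals with a 95% counting interval of 65.9 to 213. The log2 fold change was 6.96 (SE 0.67, adjusted p = 0.000172) and passed in all 19 alternatives. Replicate 3 of MeVa2.2 held 10 of that line's 13 counts, and without it the log2 fold change of Slc2a3 was 8.15.

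Same-numbered libraries deviated together here too, and with the block 5 of the 35 passed, against 9.51% of all genes tested. Higher in MeVa2.1 besides Slc2a3 were Slc2a1 (log2 fold change 0.56, adjusted p = 0.0449), Gpi1 (0.65, adjusted p = 0.0325) and Pdk1 (1.47, adjusted p = 0.00667). Slc2a1 is the basal glucose transporter, Gpi1 the glucose phosphate isomerase, and Pdk1 the kinase that shuts pyruvate out of the citrate cycle. Car12, a membrane carbonic anhydrase, was lower in MeVa2.1 (-2.10, adjusted p = 0.0407), at 1.94, 0.417 and 0.589 CPM against 4.85, 1.26 and 7.0 CPM in MeVa2.2. Its 2 groups overlapped. Without the block, adjusted p-values of these 4 were 0.0767 to 0.364.

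Libraries did not overlap for 4 of the 35, all higher in MeVa2.1, where 12% of all genes tested were higher without overlap. They were Slc2a1, Slc2a3, Gpi1 and Eno2. The median log2 fold change was 0.40, with 29 of 35 above 0, against -0.02 for all genes tested, of which 6746 of 13985 were above 0.

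MeVa2.1.dOVA was set against MeVa2.2.dOVA to compare the 2 dOVA lines, and this comparison held the most calls. It shares its libraries with the comparisons above, so the results are not independent. Of the 35 genes, 7 passed, against 11.3% of all genes tested. Slc2a1, Slc2a3, Hk1, Pfkp, Slc16a3 and Adm were higher in MeVa2.1.dOVA and Egln3 was lower.

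Slc2a3 had 39.4, 18.7 and 21.4 CPM in MeVa2.1.dOVA, against 0.108, 0 and 0 CPM in MeVa2.2.dOVA. With 1705 counts against 2, the ratio scaled to library totals was 885 with a 95% counting interval of 245 to 7317, and the fitted log2 fold change of 9.62 (SE 0.82, adjusted p = 5.56e-05) depends on the prior count. Both counts of MeVa2.2.dOVA came from replicate 1. The call was kept in all 19 alternatives. Slc2a1 had 131, 138 and 159.5 CPM in MeVa2.1.dOVA, against 108.7, 79.0 and 101 CPM in MeVa2.2.dOVA, a log2 fold change of 0.60 (SE 0.16, adjusted p = 0.0336). Its libraries did not overlap, but the call was kept in only 11 of 19 alternatives, and leaving out any library of MeVa2.1.dOVA or replicate 1 or 2 of MeVa2.2.dOVA ended it, with adjusted p-values up to 0.143.

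Hk1, the hexokinase that binds mitochondria and is expressed in most tissues, had 348, 352.5 and 269 CPM in MeVa2.1.dOVA, against 173, 120.1 and 206 CPM in MeVa2.2.dOVA. The libraries did not overlap, and the log2 fold change was 1.0 (SE 0.20, adjusted p = 0.00767). Pfkp had 194, 129 and 171 CPM in MeVa2.1.dOVA, against 48.4, 28.4 and 82.2 CPM in MeVa2.2.dOVA. Its log2 fold change was 1.69 (SE 0.32, adjusted p = 0.00665) with no overlap. Both calls were kept in all 19 alternatives. Hk2, the hexokinase that HIF-1 induces in many cells, overlapped between the lines, at 61.3 to 91.3 CPM in MeVa2.1.dOVA and 66.3 to 99.2 CPM in MeVa2.2.dOVA.

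Slc16a3 had 5.99, 0.919 and 6.42 CPM in MeVa2.1.dOVA, against 0.108, 0.0533 and 0.178 CPM in MeVa2.2.dOVA. Replicate 2 of MeVa2.1.dOVA was well below its other 2 libraries but still above all of MeVa2.2.dOVA, and the log2 fold change was 5.17 (SE 1.15, adjusted p = 0.0146). Leaving out replicate 1 or 2 of MeVa2.2.dOVA ended the call, with adjusted p-values of 0.0642 and 0.0689. The related lactate carrier Slc16a1 had 113 to 176 CPM in MeVa2.1.dOVA and 112.7 to 211 CPM in MeVa2.2.dOVA, with overlapping libraries.

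Adm had 1.85, 1.26 and 3.45 CPM in MeVa2.1.dOVA, against 0.378, 0.267 and 0.416 CPM in MeVa2.2.dOVA, without overlap. Its log2 fold change was 2.65 (SE 0.70, adjusted p = 0.0322), and leaving out replicate 1 or 3 of MeVa2.1.dOVA or any library of MeVa2.2.dOVA ended the call. Egln3 had 4.26, 3.27 and 2.82 CPM in MeVa2.1.dOVA, against 25.8, 15.4 and 20.3 CPM in MeVa2.2.dOVA, without overlap. Its log2 fold change was -2.54 (SE 0.56, adjusted p = 0.0141), and leaving out replicate 3 of MeVa2.1.dOVA or replicate 1 of MeVa2.2.dOVA ended the call, at 0.0619 and 0.0508. Egln3 passed as lower in MeVa2.1.dOVA both here and against MeVa2.1.

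With the replicate block, 17 of the 35 genes passed, 15 higher and 2 lower in MeVa2.1.dOVA, against 22.0% of all genes tested. All 7 genes that passed without the block passed with it. The preparatory enzymes Gpi1, Pfkl, Aldoa and Tpi1 were added, with log2 fold changes of 0.57, 1.18, 0.79 and 1.31. Pkm (0.71), Ldhb (1.26), Pdk1 (1.56), P4ha1 (0.68) and P4ha2 (0.65) were added as higher, and Car12 (-2.02) as lower. Ldhb encodes the lactate dehydrogenase subunit of oxidative tissues and P4ha2 a second collagen prolyl hydroxylase subunit. Adjusted p-values of the added genes ran from 0.00292 for Pdk1 to 0.0445 for Ldhb with the block, and from 0.106 to 0.287 without it. Tpi1 had 654, 296 and 722 CPM in MeVa2.1.dOVA, against 200, 112 and 427 CPM in MeVa2.2.dOVA. Within each replicate number MeVa2.1.dOVA was higher, while the 2 groups overlapped.

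**Figure D2:**
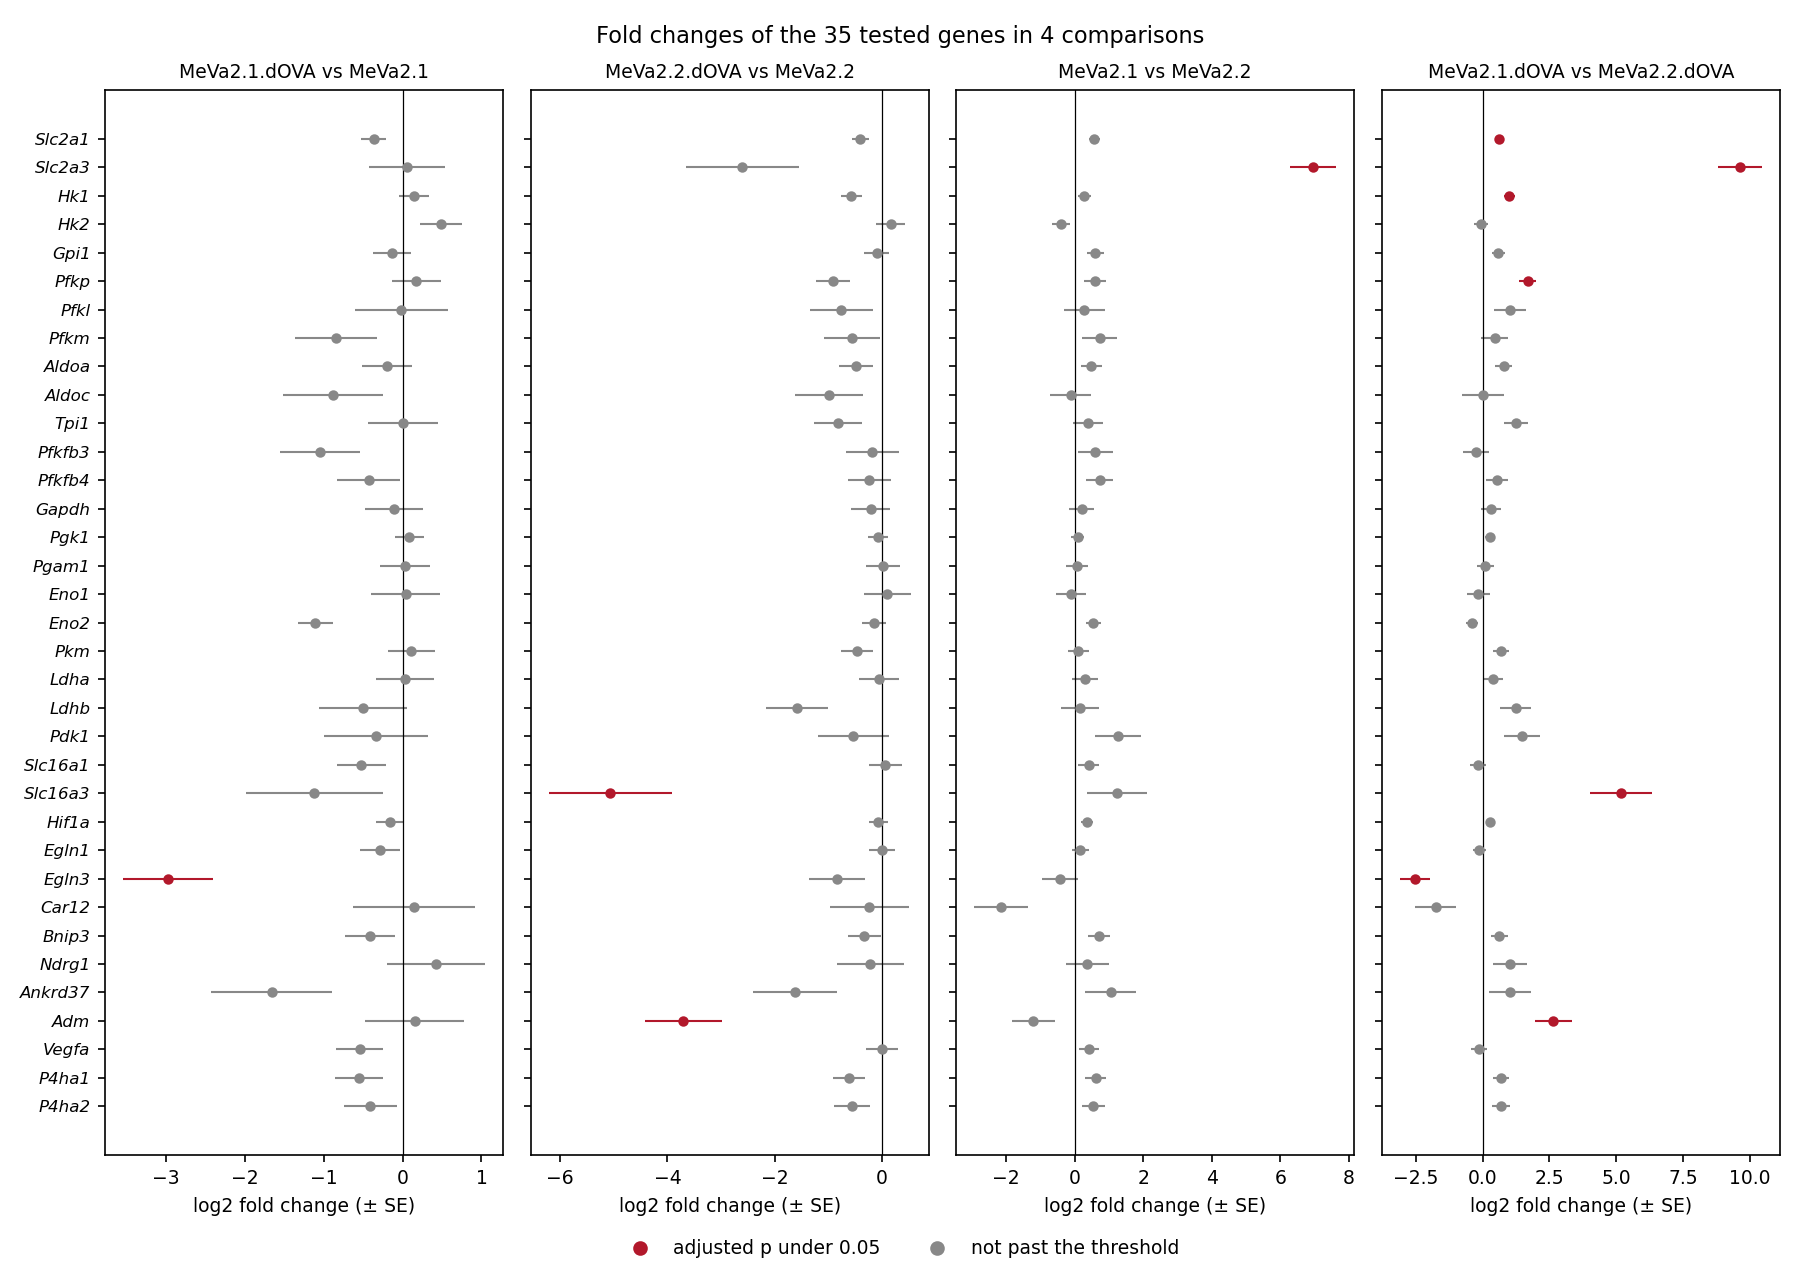
Log2 fold change (x, with bars of ± 1 SE) of the 35 tested genes (y, in pathway order) in 4 comparisons without the replicate block, 1 panel each, the first-named line over the second, with x axes that differ between panels. Red points passed an adjusted p of 0.05: 1, 2, 1 and 7 genes from left to right.

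Without the block, libraries of the 2 dOVA lines did not overlap for 7 genes that were higher in MeVa2.1.dOVA, where 14% of all genes tested were, and for 3 that were lower, where 16% of all genes tested were. The first 7 were the 6 called genes and Ndrg1, a stress-responsive gene known as a hypoxia target, which did not pass. Ndrg1 had 137, 196 and 192 CPM in MeVa2.1.dOVA, against 77.4, 104.7 and 82.2 CPM in MeVa2.2.dOVA. The 3 lower ones were Egln3, Eno2 and Car12. The median log2 fold change of the 35 was 0.58, with 25 above 0, against 0.01 for all genes tested, of which 7045 of 13985 were above 0.

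Several steps of the pathway can be run by related genes, and their shares of the step's summed level per kb differed between lines for some. Hk1 made up 74.6% ± 4.74 of the 2 hexokinases in MeVa2.1.dOVA and 78.8% ± 2.51 in MeVa2.1, against 58.2% ± 11.5 in MeVa2.2.dOVA and 70.0% ± 8.92 in MeVa2.2 (SD, n = 3 each). Slc2a3 made up 8.31% ± 3.80 of the 2 glucose transporters in MeVa2.1.dOVA and 6.19% ± 0.760 in MeVa2.1. In MeVa2.2.dOVA and MeVa2.2 it was 0.0160% ± 0.0277 and 0.0722% ± 0.0706, so Slc2a1 carried nearly the whole sum there. Slc16a3 stayed a small part of the 2 lactate carriers in every line, at most 5.69% in any library.

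Of the 3 phosphofructokinases, Pfkl, named for liver, held 43.0% to 48.8% of the summed level per kb on average in each line, the largest share. The order depends on length scaling, with exon lengths from an annotation that may not be the authors' release. In shares of counts, Pfkp held 50.7% against 40.5% for Pfkl in MeVa2.1.dOVA and 42.7% against 41.1% in MeVa2.1, while Pfkl stayed the larger in MeVa2.2.dOVA and MeVa2.2. Pfkp held 30.8% ± 8.66 in MeVa2.1.dOVA and 22.9% ± 8.32 in MeVa2.1, and 19.5% ± 4.02 in MeVa2.2.dOVA and 23.8% ± 10.2 in MeVa2.2. Pfkm, named for muscle, held 20.9% ± 3.81 in MeVa2.1.dOVA and 34.1% ± 5.28 in MeVa2.1, without overlap of their libraries. Pfkp had its lowest share in replicate 3 in all 4 lines. Eno2 held 5.12% ± 1.59 of the 2 enolases in MeVa2.1.dOVA and 11.9% ± 7.01 in MeVa2.1, with overlap, since Eno1 varied within the line. Aldoc and Ldhb each stayed under 1% of their step. These shares are descriptions with no test.

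**Figure D3:**
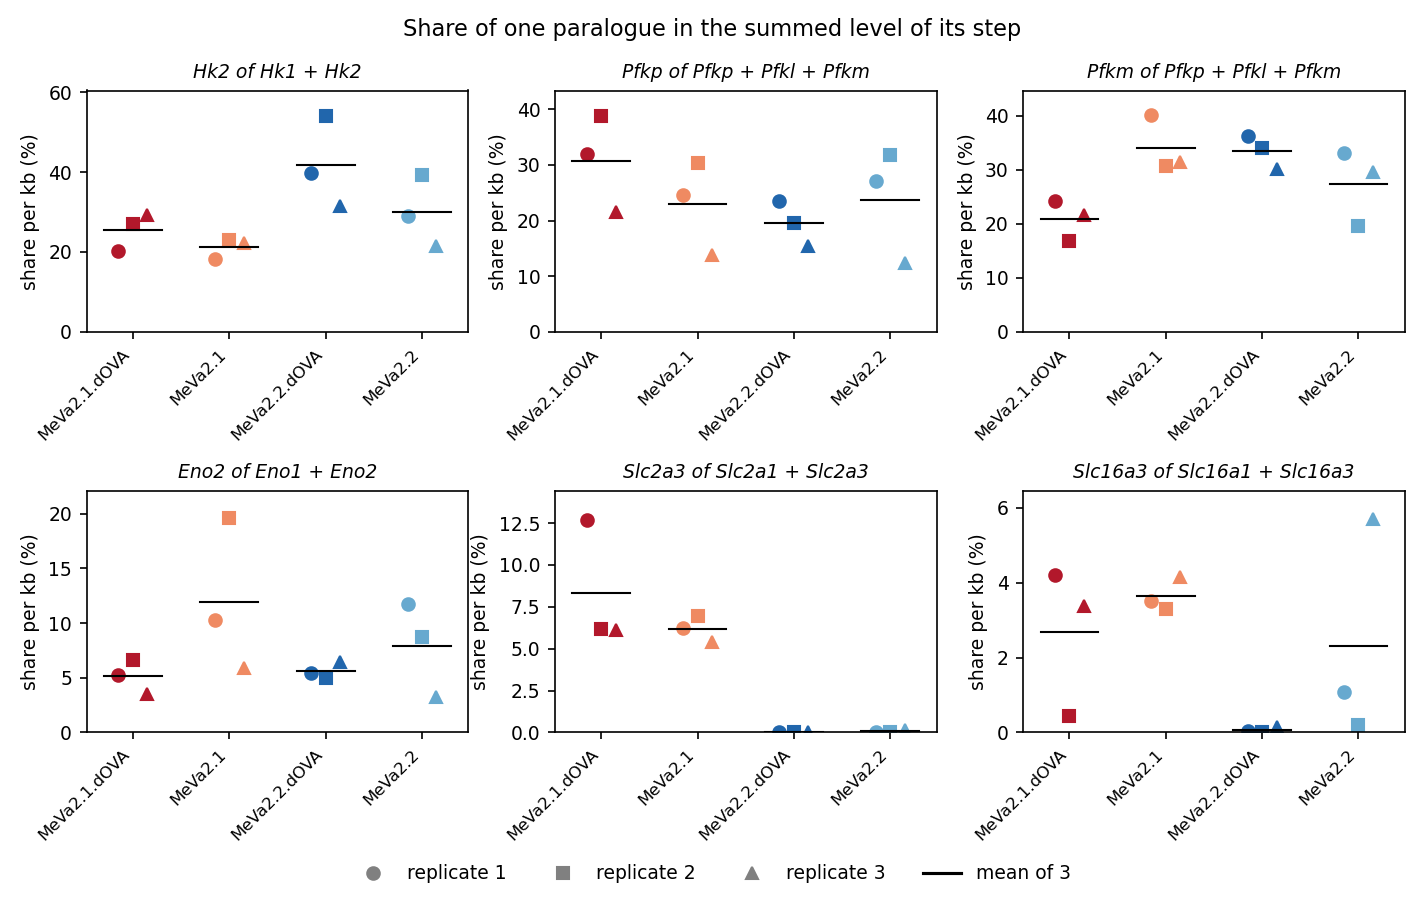
Share (y, percent of the summed CPM per kb of the step, from 0) of 1 gene in its step, by line (x), with 1 point per library and a bar at the mean of 3. Slc2a3 held 5.42% to 12.7% in the libraries of MeVa2.1.dOVA and MeVa2.1 and at most 0.153% in those of MeVa2.2.dOVA and MeVa2.2.

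Within lines, the summed level of the glycolytic enzymes varied with the replicate number in the same way in all 4 lines. For the 17 genes of hexokinase to lactate dehydrogenase it was 9417, 5295 and 10060 CPM in replicates 1, 2 and 3 of MeVa2.1.dOVA and 8038, 6828 and 9490 CPM in those of MeVa2.1. It was 5579, 3947 and 7323 CPM in MeVa2.2.dOVA and 7122, 4919 and 8795 CPM in MeVa2.2. Replicate 2 was the lowest and replicate 3 the highest of each line. Replicate 3 was also the deepest library, and the part of depth in this was not tested. CPM are scaled by depth. The 5 fibroblast markers moved with it in part: their sum was 1070, 752 and 1390 CPM in MeVa2.1.dOVA, 805, 875 and 1240 CPM in MeVa2.1, 255, 229 and 1030 CPM in MeVa2.2.dOVA and 1020, 519 and 1690 CPM in MeVa2.2. It was highest in replicate 3 of every line and lowest in replicate 2 of every line but MeVa2.1, and its part in the pattern was not tested.

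Of the 35 genes, 12, or 34.3%, had their highest level in replicate 3 in all 4 lines, against 9.2% of all genes tested, and 11, or 31.4%, their lowest level in replicate 2 in all 4 lines, against 14.2%. Aldoa, Tpi1, Gapdh, Ldha, Pfkm, Pfkfb4 and P4ha2 did both. Gapdh had 751, 343 and 888 CPM in MeVa2.1.dOVA, 703, 521 and 895 CPM in MeVa2.1, 516, 381 and 743.5 CPM in MeVa2.2.dOVA and 623, 386 and 844 CPM in MeVa2.2. Thus Gapdh, often used as a reference gene, varied more between libraries of a line than between the means of the lines, which were 547 to 706 CPM. Pfkfb4 encodes a bifunctional enzyme that sets the level of a fructose bisphosphate, an activator of phosphofructokinase.

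Another order was seen for 3 genes, Hk2, Slc16a1 and Ndrg1, which were highest in replicate 2 in all 4 lines. They are 8.57% of the 35, a share near the 7.15% among all genes tested. Hk2 had 61.3, 91.3 and 77.7 CPM in MeVa2.1.dOVA, 48.5, 61.8 and 52.9 CPM in MeVa2.1, 80.0, 99.2 and 66.3 CPM in MeVa2.2.dOVA and 73.0, 93.0 and 51.4 CPM in MeVa2.2. Pfkfb3, a second bifunctional regulator of phosphofructokinase, was highest in replicate 2 in 3 of the 4 lines. After the line means were removed, the correlation of each gene with the mean of the other enzymes over the 12 libraries was 0.99 for Gapdh, 0.96 for Aldoa and 0.94 for Tpi1. It was -0.87 for Hk2, -0.80 for Pfkfb3 and -0.74 for Slc16a1. The strongest pairs were Aldoa with Tpi1 at 0.99, Pfkl with Pdk1 at 0.99 and, in the opposite sense, Egln3 with Ndrg1 at -0.98. For Egln3 and Ndrg1 the widest deviations were in replicates 2 and 3 of MeVa2.2. They were -1.09 and 1.42 for Egln3, and 1.49 and -2.05 for Ndrg1, in log2. These 12 points share replicate numbers and hold only 8 degrees of freedom after the line means, so the values are descriptions.

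**Figure D4:**
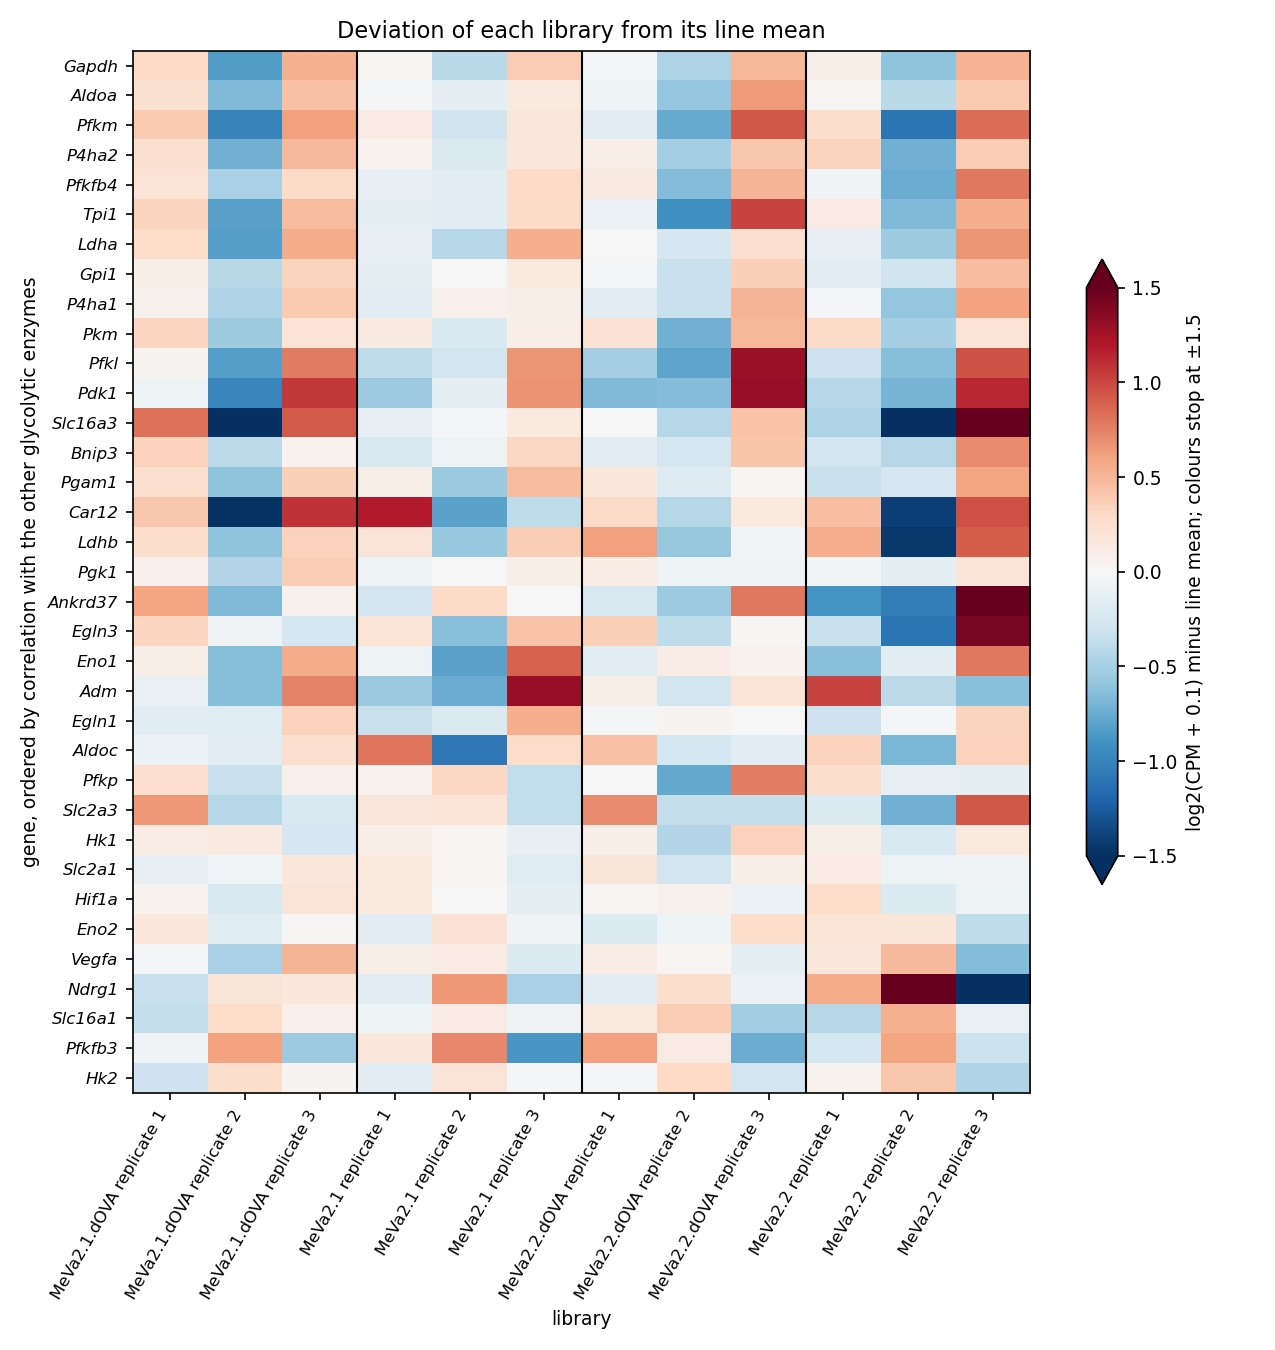
Deviation of each library (x, grouped by line) from its line mean in log2(CPM + 0.1) for the 35 tested genes (y), ordered by correlation with the other enzymes, with colours that stop at ± 1.5. Replicate 2 is blue and replicate 3 red for most genes in the upper part, and Hk2, Slc16a1 and Ndrg1 near the bottom are highest in replicate 2 in all 4 lines.

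The mean log2(CPM + 0.1) of 16 hypoxia-linked members separated the lines in part. It was 3.64 to 4.46 in MeVa2.1.dOVA and 4.68 to 4.83 in MeVa2.1, without overlap. It was 2.90 to 3.41 in MeVa2.2.dOVA and 3.43 to 4.36 in MeVa2.2, where the lowest MeVa2.2 library, replicate 2, lay only just above the highest MeVa2.2.dOVA library. The genes that make up this mean did not move as 1, and some called above are near 0 CPM with large log2 fold changes. Between the 2 dOVA lines, Slc2a3 (9.62), Slc16a3 (5.17) and Adm (2.65) were higher in MeVa2.1.dOVA and Egln3 (-2.54) was lower. In MeVa2.2.dOVA, Slc16a3 (-5.06) and Adm (-3.70) were lower than in MeVa2.2. How much of the separation came from these few genes was not tested. Egln3 reached 74.0 CPM in replicate 3 of MeVa2.2, against 21.8 and 12.8 CPM in the other 2 libraries of that line, while Ndrg1 had 16.1 CPM there against 98.2 and 188.5 CPM. Vegfa, the endothelial growth factor, had 110.5 CPM in that library against 196 and 244 CPM. Bnip3, a mitophagy receptor and HIF-1 target, had 31.7 CPM there against 15.7 and 14.3 CPM.

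**Figure D5:**
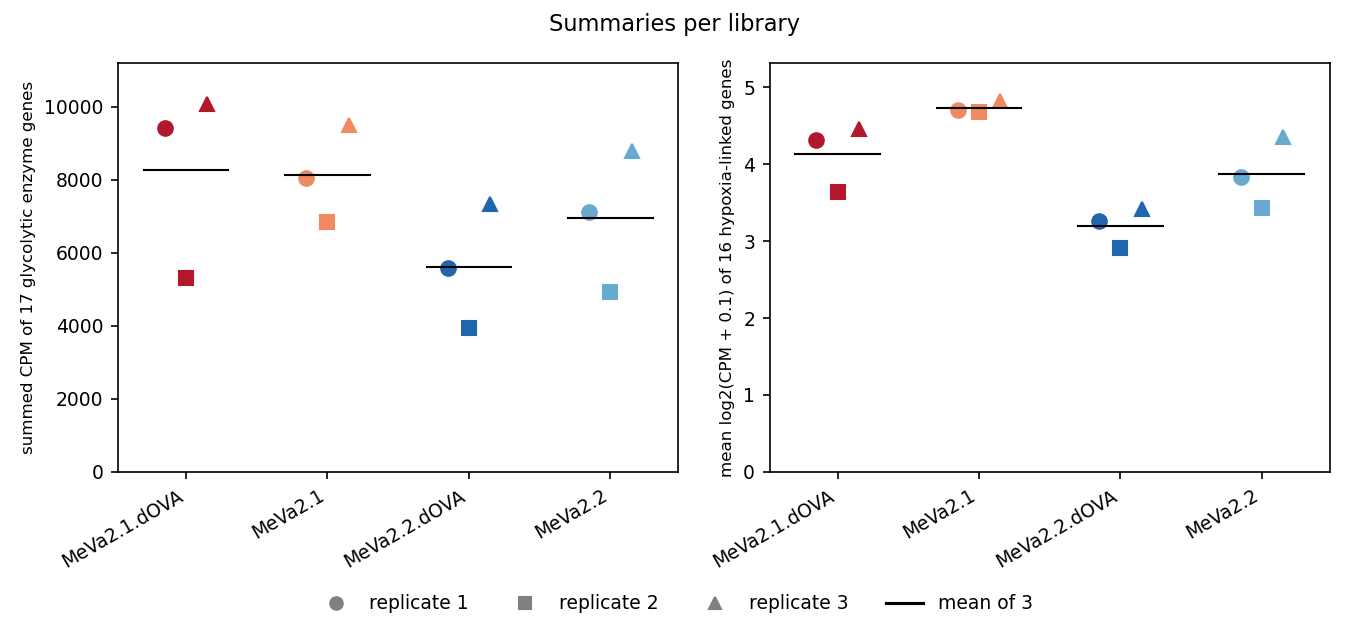
Summed CPM of 17 glycolytic enzyme genes (left) and mean log2(CPM + 0.1) of 16 hypoxia-linked genes (right) on axes from 0 (y), by line (x), with 1 point per library and a bar at the mean of 3. Replicate 2 is the lowest and replicate 3 the highest point of every line in both panels.

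The promoters of 4 called genes are shown, with those of Ldha and Bnip3, the members with the most matches, because the short core that HIF dimers bind can be looked for in them. These 6 were chosen after their values were seen. The letters searched were ACGTG and GCGTG on both strands of the 250 bases before each gene start, in RefSeq sequences of GRCm38.p6, with capitals marking each match in either orientation. Matches on the other strand read CACGT or CACGC, and CACGTG counts as 2 overlapping matches. Each sequence runs 5′ to 3′ on the gene's strand.
Egln3: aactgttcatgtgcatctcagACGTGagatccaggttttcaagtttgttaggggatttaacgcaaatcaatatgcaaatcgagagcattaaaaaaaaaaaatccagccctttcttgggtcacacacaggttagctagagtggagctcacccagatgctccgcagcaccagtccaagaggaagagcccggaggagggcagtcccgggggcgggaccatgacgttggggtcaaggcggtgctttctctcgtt
Adm: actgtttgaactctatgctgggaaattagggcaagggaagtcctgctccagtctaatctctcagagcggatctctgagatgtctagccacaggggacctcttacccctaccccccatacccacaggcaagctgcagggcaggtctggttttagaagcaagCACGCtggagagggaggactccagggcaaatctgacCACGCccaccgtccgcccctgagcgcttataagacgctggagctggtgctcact
Slc16a3: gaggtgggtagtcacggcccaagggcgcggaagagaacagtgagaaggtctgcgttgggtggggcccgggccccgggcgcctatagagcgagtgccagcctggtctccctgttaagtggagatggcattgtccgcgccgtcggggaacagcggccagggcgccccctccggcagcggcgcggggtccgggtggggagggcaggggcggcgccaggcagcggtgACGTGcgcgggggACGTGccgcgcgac
Pfkp: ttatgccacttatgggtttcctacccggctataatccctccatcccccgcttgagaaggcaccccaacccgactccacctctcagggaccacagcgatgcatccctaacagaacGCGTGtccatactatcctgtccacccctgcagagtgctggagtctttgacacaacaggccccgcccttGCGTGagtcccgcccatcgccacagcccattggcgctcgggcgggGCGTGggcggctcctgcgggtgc
Ldha: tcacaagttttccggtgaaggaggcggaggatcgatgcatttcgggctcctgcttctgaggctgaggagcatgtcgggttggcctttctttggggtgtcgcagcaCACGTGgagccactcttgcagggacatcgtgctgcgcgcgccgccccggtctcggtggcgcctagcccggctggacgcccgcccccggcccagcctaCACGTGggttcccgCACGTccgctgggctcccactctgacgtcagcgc
Bnip3: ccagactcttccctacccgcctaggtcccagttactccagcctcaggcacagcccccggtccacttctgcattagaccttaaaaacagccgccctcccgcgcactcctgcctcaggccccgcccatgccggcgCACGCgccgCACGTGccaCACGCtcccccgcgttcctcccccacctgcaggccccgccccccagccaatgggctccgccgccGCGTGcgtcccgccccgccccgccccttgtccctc

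The Egln3 window lies at chr12:54203875-54204124 on the minus strand and held 1 match. Those of Adm at chr7:110627407-110627656 on the plus strand and Slc16a3 at chr11:120948817-120949066 on the plus strand held 2 each. That of Pfkp at chr13:6648772-6649021 on the minus strand held 3. Ldha at chr7:46845554-46845803 on the plus strand and Bnip3 at chr7:138909507-138909756 on the minus strand held 5 each, the most of any member window. Of the 34 members in the promoter table, 30, or 88.2%, held a match in at least 1 window, against 61.8% of 9966 tested genes in the table and 41.5% of all 27025 genes in it. Some genes have several windows. Counted by window, 79.2% of the 48 member windows and 38.6% of all 32851 windows held a match. Tpi1, Gpi1, Eno2 and Car12 held none, and Slc2a3 and Ndrg1 were not in the table. A match is a description of letters and says nothing of binding.

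Other genes of the same biology were counted by lists. Of 34 other hypoxia pathway and target genes, 33 were tested. In MeVa2.1.dOVA against MeVa2.1, 0 passed in edgeR's quasi-likelihood test, and DESeq2 called 1. Under an unadjusted p of 0.05 were 6, against 1567 of all 13985 genes tested. With the replicate block 2 passed, against 2.6% of all genes tested. Kdm4c, a histone demethylase, was higher in MeVa2.1.dOVA (0.72, adjusted p = 0.0494) and Ppp1r3c lower (adjusted p = 0.011). In MeVa2.2.dOVA against MeVa2.2, 1 passed, against 1.99% of all genes tested. Kdm3a, a histone demethylase, was higher in MeVa2.2.dOVA (log2 fold change 1.04, SE 0.23, adjusted p = 0.0453). DESeq2 called 2 there, Kdm3a and Lox. With the block 4 passed, against 1084 of all 13985 genes tested. They were Kdm3a as higher and Angptl4 (-5.45), Lox (-4.82) and Tmem45a (-1.77) as lower. The block is only an alternative for this pair, whose replicate 1 libraries hardly deviated together. In MeVa2.1 against MeVa2.2, 4 passed, all higher in MeVa2.1, against 4.48% of all genes tested. They were the repressor Bhlhe40 (2.29), the mitochondrial adenylate kinase Ak4 (1.32), the membrane protein gene Tmem45a (3.30) and the glycogen regulator Ppp1r3c (4.65). In MeVa2.1.dOVA against MeVa2.2.dOVA, 5 of the 33 passed, against 11.3% of all genes tested. Higher in MeVa2.1.dOVA were the collagen cross-linking enzyme Lox (7.30), Tmem45a (6.04), Bhlhe40 (2.48) and Ak4 (2.27), and the growth inhibitor Ddit4 was lower (-1.39). With the block 9 of the 33 passed there, against 22.0% of all genes tested, with Arnt2 and Gbe1 added as higher and Vhl and Kdm3a as lower. In MeVa2.1 against MeVa2.2, 5 passed with it, against 9.51% of all genes tested, with Insig2 added as higher.

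Bhlhe40 had 188, 187 and 107 CPM in MeVa2.1.dOVA, against 23.4, 29.2 and 35.7 CPM in MeVa2.2.dOVA, and 156, 195 and 91.8 CPM in MeVa2.1, against 19.2, 25.1 and 47.6 CPM in MeVa2.2. Neither pair overlapped. Epas1, which encodes HIF-2 alpha and did not pass in any pairwise comparison, was highest in replicate 3 of MeVa2.2, at 31.7 CPM, the library in which Egln3 was highest too.

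Of 29 other glycolysis isoforms and regulators, 16 were tested. Emb, a partner of the lactate carriers, was lower in MeVa2.2.dOVA, set against MeVa2.2 (-1.84, SE 0.38, adjusted p = 0.0393). Galm, the galactose mutarotase, was higher in MeVa2.1 than in MeVa2.2 (2.19) and higher in MeVa2.1.dOVA than in MeVa2.2.dOVA (1.75). Emb (2.12) and the sugar transporter Slc2a10 were also higher in MeVa2.1.dOVA than in MeVa2.2.dOVA. Slc2a10 had 2.04, 0.287 and 0.835 CPM in MeVa2.1.dOVA, against 0, 0 and 0.0891 CPM in MeVa2.2.dOVA (adjusted p = 0.0371). In MeVa2.1.dOVA against MeVa2.1, 0 of the 16 passed, and 0 were called by DESeq2 or with the replicate block. Under an unadjusted p of 0.05 were 2, against 1567 of all 13985 genes tested. With the block, 4 passed in MeVa2.1 against MeVa2.2, against 9.51% of all genes tested. The enolase Eno3, Slc2a8 and Slc2a10 were added as higher. With it 5 passed in MeVa2.1.dOVA against MeVa2.2.dOVA, against 22.0% of all genes tested. Eno3 was added as higher and Txnip, an inhibitor of glucose uptake, as lower. In MeVa2.2.dOVA against MeVa2.2, the block added Txnip as higher (1.89).

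Of the 30 genes of pyruvate oxidation and the citrate cycle, all tested, 2 passed in MeVa2.1.dOVA against MeVa2.2.dOVA, against 11.3% of all genes tested. Both were higher in MeVa2.1.dOVA: the pyruvate dehydrogenase phosphatase Pdp1 (1.04) and the oxoglutarate dehydrogenase subunit Dlst (1.03). In the other 3 pairwise comparisons 0 passed. Under an unadjusted p of 0.05 were 2, 4 and 4 in MeVa2.1.dOVA against MeVa2.1, MeVa2.2.dOVA against MeVa2.2 and MeVa2.1 against MeVa2.2. Of all 13985 genes tested, 1567, 2298 and 2462 were. DESeq2 called 1, 1 and 2 in the same order. With the replicate block, 7 of the 30 passed in MeVa2.1.dOVA against MeVa2.2.dOVA, where 22.0% of all genes tested passed. Ogdh, Sucla2 and Sdhb were added as higher and Pdk4 and Suclg1 as lower. With it 2 passed in MeVa2.1 against MeVa2.2, Pdk2 higher and Idh3a lower, against 9.51% of all genes tested. In MeVa2.1.dOVA against MeVa2.1, 0 passed with it. In MeVa2.2.dOVA against MeVa2.2, 1 passed with it, Pdp1, as lower (-0.86), against 1084 of all 13985 genes tested. Of 8 genes of the pentose phosphate pathway, 0 passed in any of the 4 without the block, and DESeq2 called 0. Under an unadjusted p of 0.05 were 0, 0, 2 and 1, the last in MeVa2.1.dOVA against MeVa2.2.dOVA. Of all 13985 genes tested, 1567, 2298, 2462 and 3804 were. With the block, Tkt was higher in MeVa2.1 than in MeVa2.2 (0.68, adjusted p = 0.0444) and Rpia lower in MeVa2.1.dOVA than in MeVa2.2.dOVA (-0.84, adjusted p = 0.0199). G6pdx passed with the block as well, as the only pentose phosphate gene called for MeVa2.2.dOVA set against MeVa2.2. It was lower in the dOVA line (-0.85, adjusted p = 0.0438), and the block is only an alternative for that pair. When the 2 dOVA differences were set against each other, 0 genes of these 4 lists passed. Under an unadjusted p of 0.05 were 4, 0, 4 and 0 of the hypoxia, isoform, pyruvate and pentose phosphate lists, against 1187 of all 13985 genes tested. DESeq2 called 2, 1, 0 and 0 genes of the 4 lists. With the block, 2 of the hypoxia list, Lox and Tmem45a, passed and 0 of the others, against 0.844% of all genes tested.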

How the data were processed

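Gene counts of 12 libraries were deposited by the authors, 1 table per library, as whole-number raw counts per gene with no normalization. RNA was extracted with an RNeasy kit and libraries made with a stranded mRNA kit, per the labels' protocols. The submitters' processing notes name the build GRCm38, with HTSeq 0.10.0, STAR 2.6.0c and DESeq2 1.30.1. The annotation release and strand setting are not given in the sources used here. The 5 tally rows that name no gene, 35.8% to 40.0% of reads per library, stayed out of library sizes and tests. Most were reads of low mapping quality (29.9% to 33.0%), which can lower counts of genes with near-identical copies.

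Genes were kept with filterByExpr, scaled by TMM (factors 0.953 to 1.07) and tested with edgeR 4.0.16 (R 4.3.3) by the quasi-likelihood F test, with 1 mean per line, all 12 libraries and Benjamini-Hochberg adjustment over 13985 genes at 0.05. Each standard error is the log2 fold change divided by the square root of F, so it restates the test. Levels are counts scaled to each library's total of gene counts (CPM), and levels per kb use the summed exon length of the gene. Counting intervals are 95% and cover counting error only. Only the fit without the replicate block was tested on simulated data, for MeVa2.2.dOVA against MeVa2.2. Changes were simulated in well-counted genes only and without a replicate effect, so changes in genes of low counts were not covered. No 2 libraries of a line agreed within sampling noise (lowest chi-square per degree of freedom 27.3).

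Replicate numbers come from the labels, which do not say what they mark. Deviations of same-numbered libraries from their line means correlated at 0.488 to 0.534 for MeVa2.1.dOVA with MeVa2.1, 0.328 to 0.429 for MeVa2.1 with MeVa2.2 and 0.105 to 0.516 between the 2 dOVA lines. All are over 0.1, so the fit with the replicate number as a block is given for these 3. For MeVa2.2.dOVA with MeVa2.2 they were 0.0815, 0.640 and 0.521 for replicates 1, 2 and 3. Replicate 1 fell short of 0.1, so the block is only an alternative there, although replicates 2 and 3 deviated together. Tests over all 4 lines with the block include that pair.

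The 36 genes and the further lists were chosen with earlier results of these data known. Any of the 36 could be named, as could each list gene past the threshold, with full statistics for those past it. Alternatives were other size factors, library totals, no filter, DESeq2 1.42.0, the 2 lines alone, the replicate block, each library left out, and shares without length.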

Additional observations from a re-analysis of the deposited data

How the results depend on the processing

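None of the recomputed counts, levels or fold changes of called genes reversed. With the replicate block, 8 fold changes of the 35 genes over the 4 pairwise comparisons changed sign, and 0 of these passed in either fit. Without length scaling, Pfkp and not Pfkl held the largest phosphofructokinase share in MeVa2.1.dOVA and MeVa2.1. Counts called among the 35 genes are given first, then among all genes. For MeVa2.1.dOVA against MeVa2.1 they were 1 and 68, for MeVa2.2.dOVA against MeVa2.2 they were 2 and 278, for MeVa2.1 against MeVa2.2 they were 1 and 627, for MeVa2.1.dOVA against MeVa2.2.dOVA they were 7 and 1574, for the difference of dOVA differences 0 and 12, and for any difference 8 and 1984. With library totals only, the 35 genes gave 0 and 1 in the first and second comparison. Without the filter they gave 1 for the difference of differences, and all genes gave 272, 729, 969 and 161 in the first 3 comparisons and that difference. With DESeq2 the 35 genes gave 2 for MeVa2.1.dOVA against MeVa2.1, 3 for MeVa2.1 against MeVa2.2 and 1 for the difference, and all genes gave 390, 951, 1216, 2379, 262 and 3718 in the order above. With the 2 lines alone the second gave 0 of the 35, and all genes gave 25, 5, 397 and 1025 in the first 4. With the replicate block, the 35 genes gave 2, 4, 5 and 17 in the first 4 and 22 for any difference, and all genes gave 364, 1084, 1330, 3079, 118 and 4340. In MeVa2.2.dOVA against MeVa2.2, where replicate 1 fell short of the limit for pairing, the block added Pfkl and Ldhb. Every gene of the 35 that was called without the block was called with it. Without replicate 2 of both MeVa2.1.dOVA and MeVa2.2, MeVa2.1.dOVA against MeVa2.1 gave 0 and MeVa2.1 against MeVa2.2 gave 2 of the 35, and all genes gave 2 in the first and 693 in the second.

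Leaving out 1 library at a time gave 0 to 2, 0 to 3, 1 to 3, 3 to 10, 0 to 0 and 4 to 11 of the 35, and 1 to 83, 20 to 447, 279 to 775, 796 to 2578, 0 to 13 and 1249 to 2974 of all genes. Where a line then had 2 libraries, they were assumed to vary like the other lines. The cause of these shifts was not tested. Of 549 recomputed fold changes of named genes, 470 stayed on their side of the threshold, 45 fell short of it and 34 passed it, and all kept their direction. Scaling by TMM left the 140 levels within 1 SD, and 29 of 68 shares moved by more than that without length scaling. Genes under about 1 CPM, such as Aldoc, Car9 and Slc16a3 in MeVa2.2.dOVA, are limited by depth.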
